A study of Mus musculus with 8 samples.

Results

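The genes described here are 9 genes of hemoglobin production and the red cell: the globin genes Hba-a1 and Hbb-b1, the heme enzyme gene Alas2, the anion exchanger gene Slc4a1, the globin chaperone gene Ahsp, the carbonic anhydrase genes Car1 and Car2, the membrane protein gene Ermap and the erythropoietin receptor gene Epor. They were chosen by name, and each was read from the non-control array probe that matched its transcript, taking the probe with the highest mean where there were several. A probe was matched for 7 of the 9 genes, among 20660 named genes on the array. Hbb-b1 and Ahsp were not analysed here.

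RNA was measured on 8 Agilent 1-colour mouse arrays, 1 array for each of 8 groups, in marrow cells sorted as LSK (without lineage markers, with Sca-1 and c-Kit), which include hematopoietic stem cells. Donor CD45.2 stem cells carried Cre-ERT, an inducible recombinase, with either Ezh2wt/wt or Ezh2flox/flox. A retrovirus gave them RUNX1S291fs or an empty control, and they were grafted into lethally irradiated recipients beside wild-type CD45.1 marrow, on a C57BL/6 background. Ezh2, which encodes the methyltransferase of Polycomb repressive complex 2, was deleted after the graft.

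At month 4 the CD45.2 cells of 4 groups were taken: WT (Ezh2wt/wt, empty virus), Ezh2Δ/Δ (empty virus), RUNX1S291fs (Ezh2wt/wt) and RUNX1S291fs/Ezh2Δ/Δ, called the double mutant here. Each of these arrays held a pool of cells from 2 to 4 mice. The arrays called MDS and MDS/ML held CD45.2 double-mutant cells of 2 moribund mice, one with myelodysplastic syndrome and one with myelodysplastic syndrome and myeloid leukemia. The last 2 arrays held wild-type CD45.1 competitor cells taken at month 4 from RUNX1S291fs marrow and from double-mutant marrow. The labels give neither the number of mice behind the CD45.1 cells nor the age of the moribund mice. RUNX1S291fs came from a retroviral vector in every group that carried it.

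Red cell precursors fill themselves with hemoglobin, a tetramer of alpha and beta globin chains that each hold a heme. Alas2 makes the erythroid form of the enzyme that starts heme synthesis, erythropoietin acting through its receptor keeps the precursors alive, and Slc4a1 (band 3) exchanges chloride and bicarbonate across the red cell membrane and anchors its skeleton. Globin RNA is a product of late erythroid cells, whereas LSK cells lie upstream of the erythroid lineage.

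The arrays fell on 3 slides: WT, the double mutant and MDS on slide 1; slide 2 held Ezh2Δ/Δ, RUNX1S291fs and the pair of CD45.1 samples, and MDS/ML was alone on slide 3. Between 43.9% and 55.3% of probes were well above background by the scanner software's mark, and the signal at the 75th percentile of probes ran from 185.7 to 474.3. Ezh2 RNA lay between 3.10 and 4.01 and Runx1 RNA between 3.04 and 5.31 on the level scale defined in the next paragraph. Where these probes lie relative to the deleted part of Ezh2 or to the introduced RUNX1S291fs was not known, so they check no label. Among sort markers, Kit ran from 4.06 to 5.11 on the 8 arrays. Ly6a, which encodes Sca-1, was at 0.53 on MDS and 1.18 on MDS/ML and between 3.17 and 4.14 on the other arrays.

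A level is the log2 processed signal of a gene's probe minus the log2 75th percentile of its array, so that 0 marks a signal equal to that percentile. Levels were compared only across arrays for the same gene, since probes differ in brightness. A value of a probe that was not well above background has only an upper bound. As each group had a single array, a difference between 2 arrays is a description with no test. The only error measured within an array was the median SD between repeat spots of a probe, 0.0545 to 0.0685 on the log2 scale, which covers spotting and not mice or cultures.

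The promoters of the members that could be shown are given first because Hba-a1, Hba-a2, Hbb-bt, Hbb-bs and Alas2 had their lowest levels on the same 3 arrays, and Ermap and Epor did not. RefSeq promoter entries (GRCm38.p6) were found for 4 of the 9 members, Hba-a1, Alas2, Ermap and Epor, and for the globin genes Hba-a2, Hbb-bt and Hbb-bs. Each line gives the 120 bases before the transcript start, 5′ to 3′ on the strand of the gene. Capitals mark exact matches, on either strand, to 4 motifs. The GATA motif was searched as AGATAA with the other forms TGATAA, then also with AGATAG and lastly with TGATAG. The CACC box was spelled CCNCNCCC in this search, the RUNX motif was TGTGGT and its other spelling TGCGGT, and the last motif was CCAAT.
Hba-a1: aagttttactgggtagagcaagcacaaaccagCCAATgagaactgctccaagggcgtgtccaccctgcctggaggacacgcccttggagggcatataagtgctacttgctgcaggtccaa
Hba-a2: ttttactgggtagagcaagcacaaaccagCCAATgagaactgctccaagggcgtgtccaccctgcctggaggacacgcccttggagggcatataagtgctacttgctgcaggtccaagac
Hbb-bt: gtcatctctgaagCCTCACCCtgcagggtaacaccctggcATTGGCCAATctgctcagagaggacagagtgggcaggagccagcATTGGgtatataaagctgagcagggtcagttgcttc
Hbb-bs: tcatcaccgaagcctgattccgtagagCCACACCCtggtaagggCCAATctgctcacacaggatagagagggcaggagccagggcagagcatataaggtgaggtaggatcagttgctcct
Alas2: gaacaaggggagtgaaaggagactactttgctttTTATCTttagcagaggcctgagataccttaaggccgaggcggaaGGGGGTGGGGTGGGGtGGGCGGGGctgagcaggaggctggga
Ermap: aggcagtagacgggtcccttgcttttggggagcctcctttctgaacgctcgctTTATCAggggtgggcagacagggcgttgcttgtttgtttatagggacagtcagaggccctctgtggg
Epor: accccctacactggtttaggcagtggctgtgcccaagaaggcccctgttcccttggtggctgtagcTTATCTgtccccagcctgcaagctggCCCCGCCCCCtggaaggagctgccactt

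These windows lie at chr11:32283552-32283671 (plus strand) for Hba-a1, chr11:32296372-32296491 (plus) for Hba-a2, chr7:103813924-103814043 (minus) for Hbb-bt, chr7:103827929-103828048 (minus) for Hbb-bs, chrX:150547297-150547416 (plus) for Alas2, chr4:119189996-119190115 (minus) for Ermap and chr9:21963577-21963696 (minus) for Epor. The Hba-a1 and Hba-a2 windows held the same bases once shifted by 3, at 117 of 117 positions. The Hbb-bt and Hbb-bs windows matched at 88 of 119 positions (73.9%). CCAAT was found in all 4 globin windows and in none of Alas2, Ermap and Epor, and GATA was found in Alas2, Ermap and Epor and in none of the globin windows. The CACC box was found in Hbb-bt, Hbb-bs, Alas2 and Epor, with overlapping matches in Alas2 and Epor, and no RUNX match lay in any of the 7. Of 32851 promoter windows of the same length, 12.8% held a GATA match, 34.6% a CACC box, 9.12% a RUNX match and 21.3% a CCAAT. A match of letters does not show that a protein binds, and the absence of one says only that these letters are not in this window.

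Hba-a1, which encodes adult alpha globin, took very different levels on arrays of cells that were all sorted as LSK. Its level was 1.76 on WT, 6.17 on Ezh2Δ/Δ, 5.74 on RUNX1S291fs, 5.01 on the double mutant, 4.57 on MDS, 1.23 on MDS/ML, 4.96 on the CD45.1 array from RUNX1S291fs marrow and 1.27 on the CD45.1 array from double-mutant marrow. Thus 5 arrays lay between 4.57 and 6.17, and WT, MDS/ML and the CD45.1 array from double-mutant marrow lay between 1.23 and 1.76. The step of 2.82 between the 5 and the 3 was the largest of the 7 steps in the order, and the highest and lowest arrays were 30.5-fold apart. The 3 lay on 3 different slides, and slides 1 and 2 also held high arrays. The arrays of wild-type cells lay at 1.27, 1.76 and 4.96, but they came from different marrows and from donor or competitor cells. Ezh2Δ/Δ, RUNX1S291fs, the double mutant and MDS, at 6.17, 5.74, 5.01 and 4.57, lay above WT at 1.76. MDS/ML, which carried the lesions of the double mutant, lay below WT at 1.23. With single arrays, the part of genotype, marrow or slide in these levels was not tested. The unscaled signal was 1602 on WT, 24481 on Ezh2Δ/Δ and 1018 on MDS/ML, well above background on all 8 arrays.

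**Figure D1:**
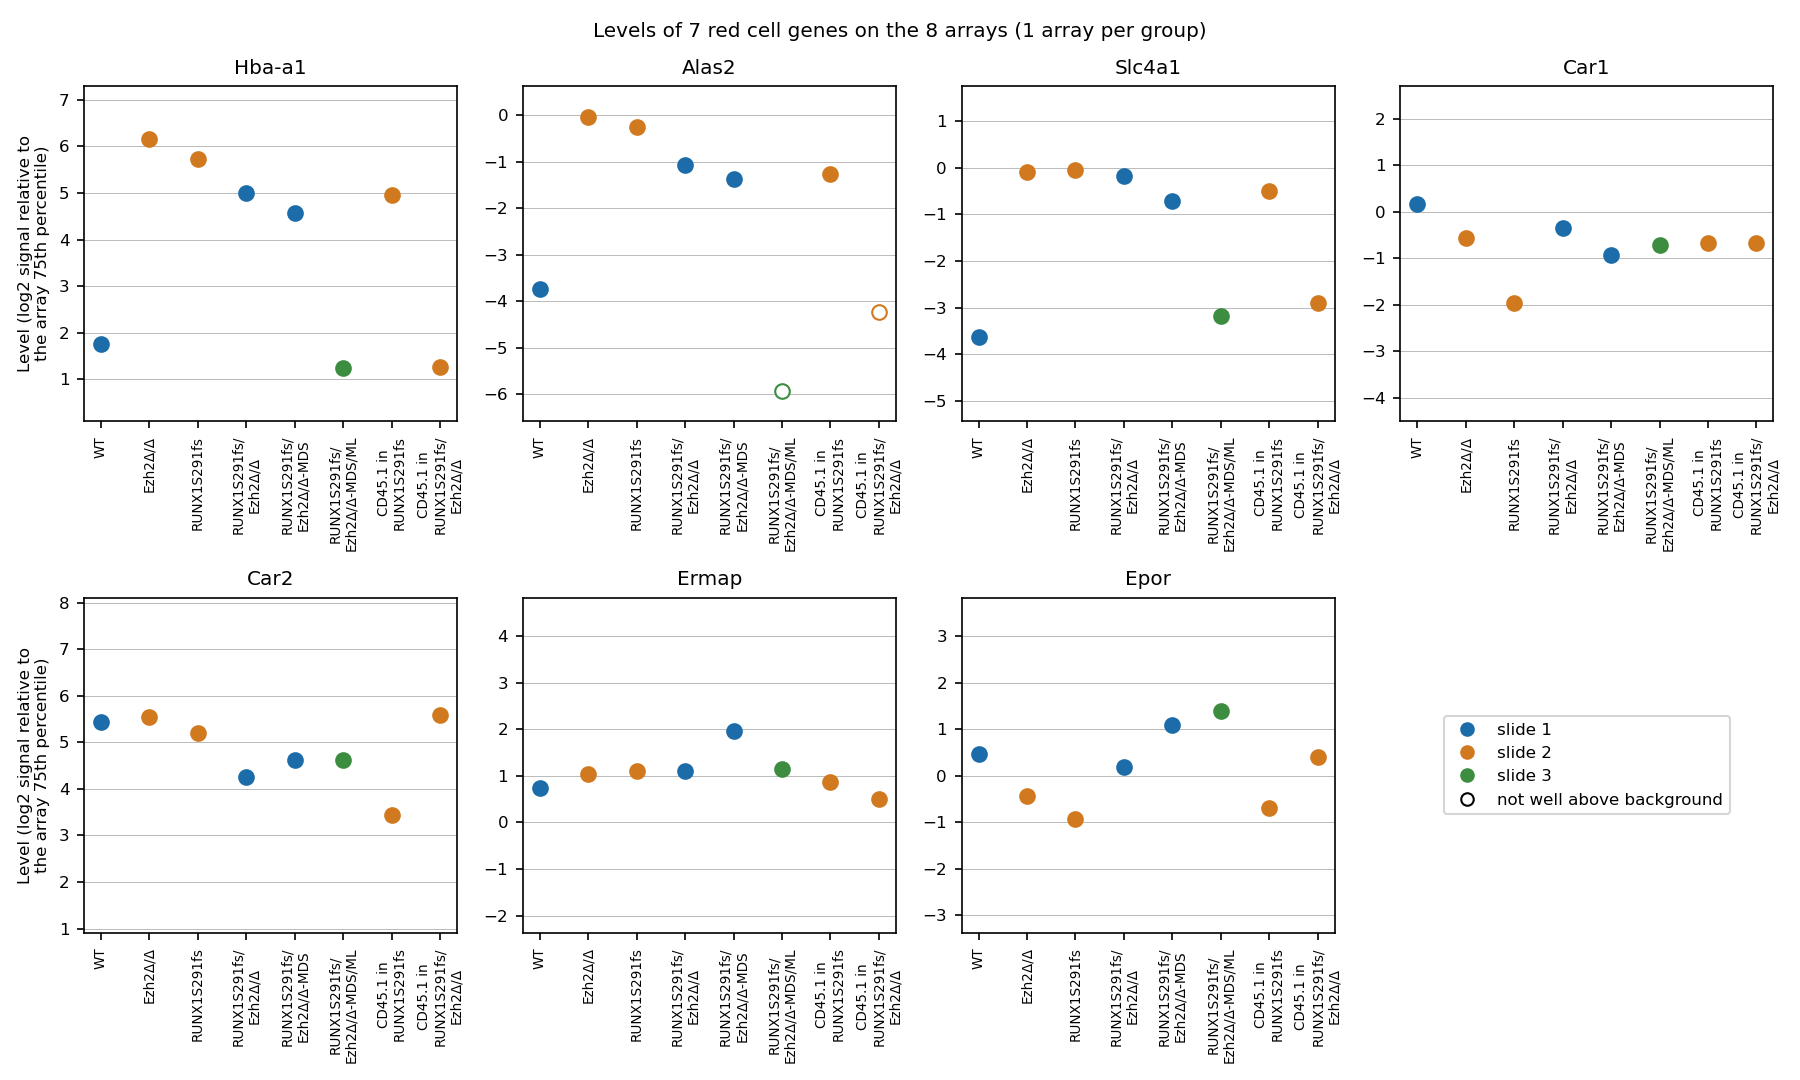
Levels of the 7 members with a probe on the 8 arrays (log2 signal relative to the array's 75th percentile, 1 point per array), with colour for the slide and open points for probes not well above background. All panels span the same number of log2 units; Hba-a1, Alas2 and Slc4a1 are low on WT, MDS/ML and the CD45.1 array from double-mutant marrow, and the other 4 genes are not low on those 3 together.

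The gene that makes the erythroid heme enzyme showed the same 3 low arrays. Alas2 was at -3.74 on WT, -0.03 on Ezh2Δ/Δ, -0.26 on RUNX1S291fs, -1.07 on the double mutant, -1.38 on MDS and -1.26 on the CD45.1 array from RUNX1S291fs marrow. It was not well above background on MDS/ML (measured at -5.92) or on the CD45.1 array from double-mutant marrow (-4.23). With dim values raised to the lowest signal that was well above background on the array, the highest and lowest arrays were at least 19.2-fold apart.

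Slc4a1, which encodes band 3 of the red cell membrane, was at -3.64 on WT, -0.09 on Ezh2Δ/Δ, -0.05 on RUNX1S291fs, -0.17 on the double mutant, -0.71 on MDS, -3.17 on MDS/ML, -0.50 on the CD45.1 array from RUNX1S291fs marrow and -2.90 on the CD45.1 array from double-mutant marrow. The lowest 3 were again WT, MDS/ML and the CD45.1 array from double-mutant marrow, 2.19 or more log2 units below the other 5. The highest and lowest arrays were 12.04-fold apart. In all 3 genes the same 3 arrays were lowest, which is not shared by Car1, Car2, Ermap or Epor.

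The other globin genes were read to see whether the pattern of Hba-a1 was shared by both chains. Hba-a2, the near-identical neighbour of Hba-a1, was at 3.94, 8.40, 8.04, 7.36, 7.02, 3.75, 7.43 and 3.71 in the same order of arrays. Hbb-bs, an adult beta globin, was at -2.51, 2.33, 1.43, 0.37, 0.57, -2.64, 0.57 and -2.66. Hbb-b2 was at 0.53, 3.802, 3.13, 2.78, 2.82, 0.29, 3.41 and 1.23, and Hbb-bt, another beta globin, at 4.56, 6.37, 5.95, 5.92, 5.89, 4.56, 7.38 and 5.75. Of the 6 globin genes measured above background on 3 or more arrays, 5, Hba-a1 itself included, had the 3 lowest arrays of Hba-a1. The exception was the embryonic chain Hbb-bh1. Pearson r with Hba-a1 was 0.998 for Hba-a2, 0.991 for Hbb-bs, 0.961 for Hbb-b2 and 0.715 for Hbb-bt. In Hbb-bt the CD45.1 array from double-mutant marrow was 0.15 below MDS, a step within 2 spot SDs of the difference. The largest step of Hbb-bt, 1.19, lay below that CD45.1 array. Hbb-bt had its highest level, 7.38, on the CD45.1 array from RUNX1S291fs marrow, not on Ezh2Δ/Δ.

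Globin genes are near-identical copies, so signal of 1 gene can fall on another's probe and each gene's own level is uncertain. C57BL/6 mice carry Hbb-bs and Hbb-bt at the adult beta locus, so the Hbb-b2 probe may have read RNA of those genes. Its likeness to the other globin probes is therefore not separate evidence. The embryonic chains were mostly dim. Hbb-y was well above background on 2 arrays, MDS (-2.22) and the double mutant (-3.67). Hbb-bh1 was well above background on 3, WT (-3.83), MDS (-3.21) and MDS/ML (-3.73). WT and MDS/ML were low arrays of Hba-a1. Hba-x, Hbb-bh2, Hbq1a and Hbq1b were not well above background on any.

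The carbonic anhydrases, which convert carbon dioxide and water to bicarbonate, followed other orders. Car1, the major form in red cells, was at 0.16 on WT, -0.57 on Ezh2Δ/Δ, -1.96 on RUNX1S291fs, -0.35 on the double mutant, -0.94 on MDS, -0.72 on MDS/ML, -0.66 on the CD45.1 array from RUNX1S291fs marrow and -0.67 on the CD45.1 array from double-mutant marrow. WT was highest and RUNX1S291fs lowest, 4.35-fold apart. A dimmer Car1 probe gave -1.20, -1.60, -3.28, -1.83, -5.32, -2.66, -1.94 and -1.87 in the same order. It also had WT highest, but its lowest array was MDS, where it was not well above background.

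Car2, a high-activity form that is also abundant in many other cells, was at 5.44 on WT, 5.55 on Ezh2Δ/Δ, 5.21 on RUNX1S291fs, 4.26 on the double mutant, 4.63 on MDS, 4.63 on MDS/ML, 3.43 on the CD45.1 array from RUNX1S291fs marrow and 5.59 on the CD45.1 array from double-mutant marrow. The CD45.1 array from RUNX1S291fs marrow was lowest by 0.83, and the CD45.1 array from double-mutant marrow, Ezh2Δ/Δ and WT were highest. Neither the step between the top 2 nor the next, 0.04 and 0.11, passed 2 spot SDs of the difference.

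Ermap, an immunoglobulin-like membrane protein of the erythroid line, changed least by its chosen probe. It was at 0.73, 1.04, 1.099, 1.101, 1.97, 1.15, 0.86 and 0.49 in the order WT, Ezh2Δ/Δ, RUNX1S291fs, double mutant, MDS, MDS/ML, CD45.1 from RUNX1S291fs marrow and CD45.1 from double-mutant marrow. MDS was 0.82 above the next array, and only 2 of the 7 steps in the order passed 2 spot SDs. A second Ermap probe gave the opposite: it was lowest on MDS (-4.91, not well above background), and both probes had Pearson r = -0.72 over the 8 arrays, so which way Ermap RNA differed on MDS is unsettled.

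Epor, the receptor by which erythropoietin acts, was at 0.47 on WT, -0.44 on Ezh2Δ/Δ, -0.93 on RUNX1S291fs, 0.19 on the double mutant, 1.08 on MDS, 1.39 on MDS/ML, -0.68 on the CD45.1 array from RUNX1S291fs marrow and 0.41 on the CD45.1 array from double-mutant marrow. Both moribund arrays were highest, and RUNX1S291fs, the CD45.1 array from its marrow and Ezh2Δ/Δ lowest. The highest and lowest arrays were 4.99-fold apart. Epor therefore was not low where Hba-a1, Alas2 and Slc4a1 were low, and over the 8 arrays its Pearson r with Hba-a1 was -0.69.

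Lesions were compared next with WT, as single arrays. Ezh2Δ/Δ had Hba-a1 21.3-fold, Alas2 13.02-fold and Slc4a1 11.7-fold above WT, and 3 of 7 members were at least 2-fold higher and 0 lower, beside 7.84% of 14095 measured genes higher and 3.85% lower (11.7% either way). RUNX1S291fs had the same 3 genes 15.8-fold, 11.1-fold and 12.04-fold above WT, with 3 members higher and 2, Car1 and Epor, lower, beside 8.71% and 5.79% of genes (14.5% either way). The double mutant, on the same slide as WT, had them 9.55-fold, 6.33-fold and 11.03-fold above WT. There 3 members were higher and 1, Car2, lower, beside 10.6% and 7.94% of genes (18.6% either way). All 3 comparisons share the 1 WT array, which was 1 of the 3 low arrays.

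**Figure D2:**
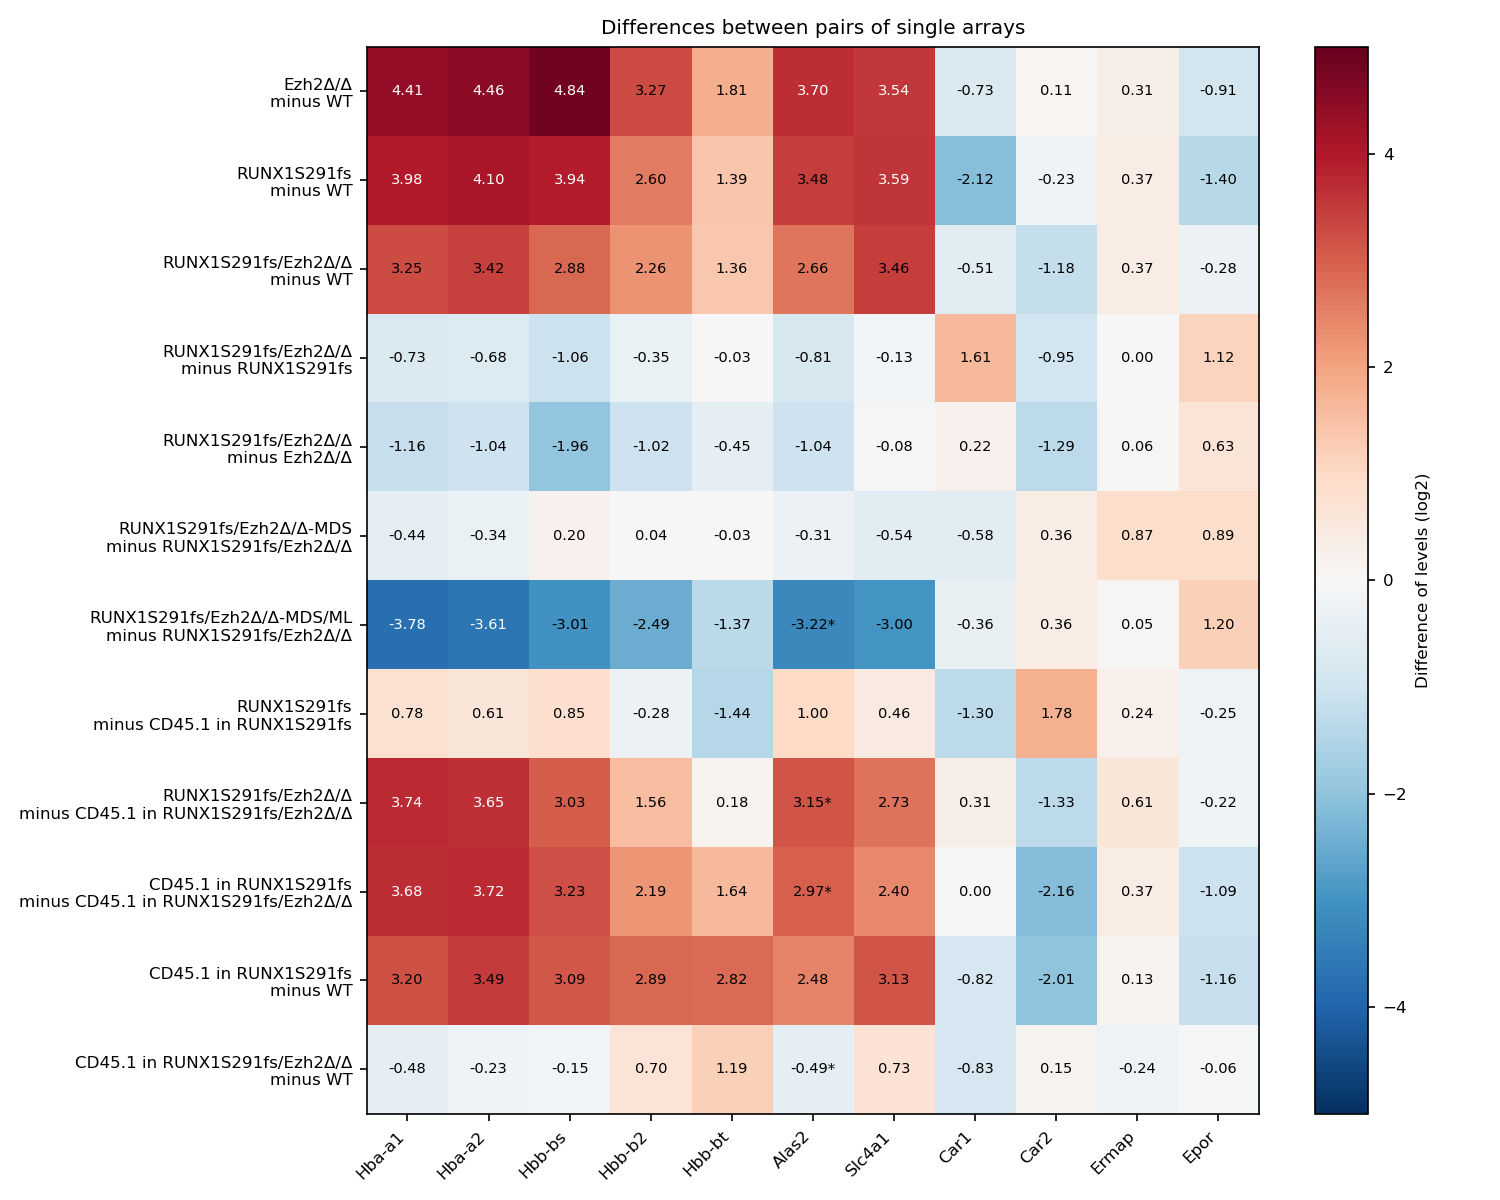
Differences of levels (log2) between 12 pairs of single arrays, 1 row per pair, for 7 members and 4 further globin genes; a star marks a bound where 1 array was not well above background. Red fills the Hba-a1, Alas2 and Slc4a1 columns wherever WT, or the CD45.1 array from double-mutant marrow, stands second against a higher array, and blue where MDS/ML stands first; no pair has error bars because each array is alone.

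Set against the single lesions, the double mutant was not higher in Hba-a1, Alas2 or Slc4a1. The double mutant against RUNX1S291fs had 2 of 7 members at least 2-fold higher, Car1 (1.61 log2) and Epor (1.12), and 0 lower, beside 8.08% and 8.48% of genes (16.6% either way). The double mutant against Ezh2Δ/Δ had 0 higher and 3 lower, Hba-a1 by 1.16, Alas2 by 1.04 and Car2 by 1.29, beside 10.9% and 11.0% of genes (21.9% either way). Slc4a1 differed by 0.13 or less in both.

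The moribund double mutants were compared with the month 4 double mutant. MDS, on its slide, had 0 of 7 members at least 2-fold apart, beside 30.5% of all genes (10.6% higher and 19.9% lower), with Hba-a1 0.44 lower, Alas2 0.31 lower and Slc4a1 0.54 lower. MDS/ML had 3 members lower, Hba-a1 13.7-fold, Slc4a1 7.99-fold and Alas2 at least 9.31-fold, and 1 higher, Epor 2.30-fold, beside 9.85% of genes higher and 15.2% lower (25.1% either way). The 2 moribund mice therefore differed from each other in globin genes: Hba-a1 was at 4.57 in one and 1.23 in the other. With 1 mouse for each diagnosis, MDS on slide 1 and MDS/ML on slide 3, diagnosis, mouse and slide cannot be told apart.

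The arrays of wild-type cells also differed from each other in Hba-a1, Slc4a1 and Alas2. With 1 CD45.1 array for each kind of marrow, marrow and sample cannot be told apart. The 2 CD45.1 arrays lay on 1 slide, and Hba-a1 was 12.9-fold higher, Slc4a1 5.29-fold and Alas2 at least 7.84-fold higher in the cells from RUNX1S291fs marrow than in those from double-mutant marrow. Car2 was 4.46-fold and Epor 2.13-fold lower. That is 3 of 7 members higher and 2 lower, beside 9.37% and 6.79% of genes (16.2% either way). WT against the CD45.1 array from double-mutant marrow had 0 members at least 2-fold apart, beside 6.68% of genes (4.61% higher and 2.07% lower in the CD45.1 cells), while the CD45.1 array from RUNX1S291fs marrow against WT had 3 higher and 2 lower, beside 14.4% and 6.67% (21.1% either way).

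The mutant cells were also set against the CD45.1 cells of the same marrow. RUNX1S291fs against its CD45.1 cells, on 1 slide, had Car2 3.43-fold higher and Car1 2.46-fold lower, beside 8.74% of genes higher and 12.4% lower (21.1% either way), with Hba-a1 0.78 higher. The double mutant against its CD45.1 cells had Hba-a1 13.4-fold, Slc4a1 6.65-fold and Alas2 at least 8.90-fold higher and Car2 2.51-fold lower, beside 9.26% and 9.42% of genes (18.7% either way). The large difference thus appeared where 1 of the 3 low arrays was the reference and not between RUNX1S291fs and its CD45.1 cells. Those 3 arrays were named from these same levels, so this only restates that they were low. The double mutant and its CD45.1 cells were on different slides, 1 and 2.

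The share of RNA from mature cells cannot be separated from RNA per cell here: in pooled cells a gene's level may be low because fewer cells of a type were present or because each held less of its RNA. Markers of another blood line moved with the globin genes. Of 7 neutrophil genes, 5 (Ngp, Ltf, Camp, S100a8 and S100a9) had the 3 lowest arrays of Hba-a1, and the mean level of all 7 was 2.44 on WT, 5.26 on Ezh2Δ/Δ, 3.99 on RUNX1S291fs, 7.23 on the double mutant, 5.69 on MDS, -0.58 on MDS/ML, 5.22 on the CD45.1 array from RUNX1S291fs marrow and 2.01 on the CD45.1 array from double-mutant marrow. Elane and Mpo, the other 2, did not share these 3 arrays. Summed on the linear scale the list came to 75.7 to 627 times the array's 75th percentile on the 3 arrays and 587 to 3396 times on the other 5, with Ngp and Ltf not well above background on MDS/ML. The same 3 arrays had the 3 brightest 75th percentiles, 429 to 474, against 186 to 341 on the other 5. Over the 8 arrays the level of Hba-a1 had r = -0.71 with the log2 75th percentile. A level has that same percentile subtracted, which by itself pushes r towards negative values. The part of neutrophil RNA or of array brightness in the result was not tested.

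**Figure D3:**
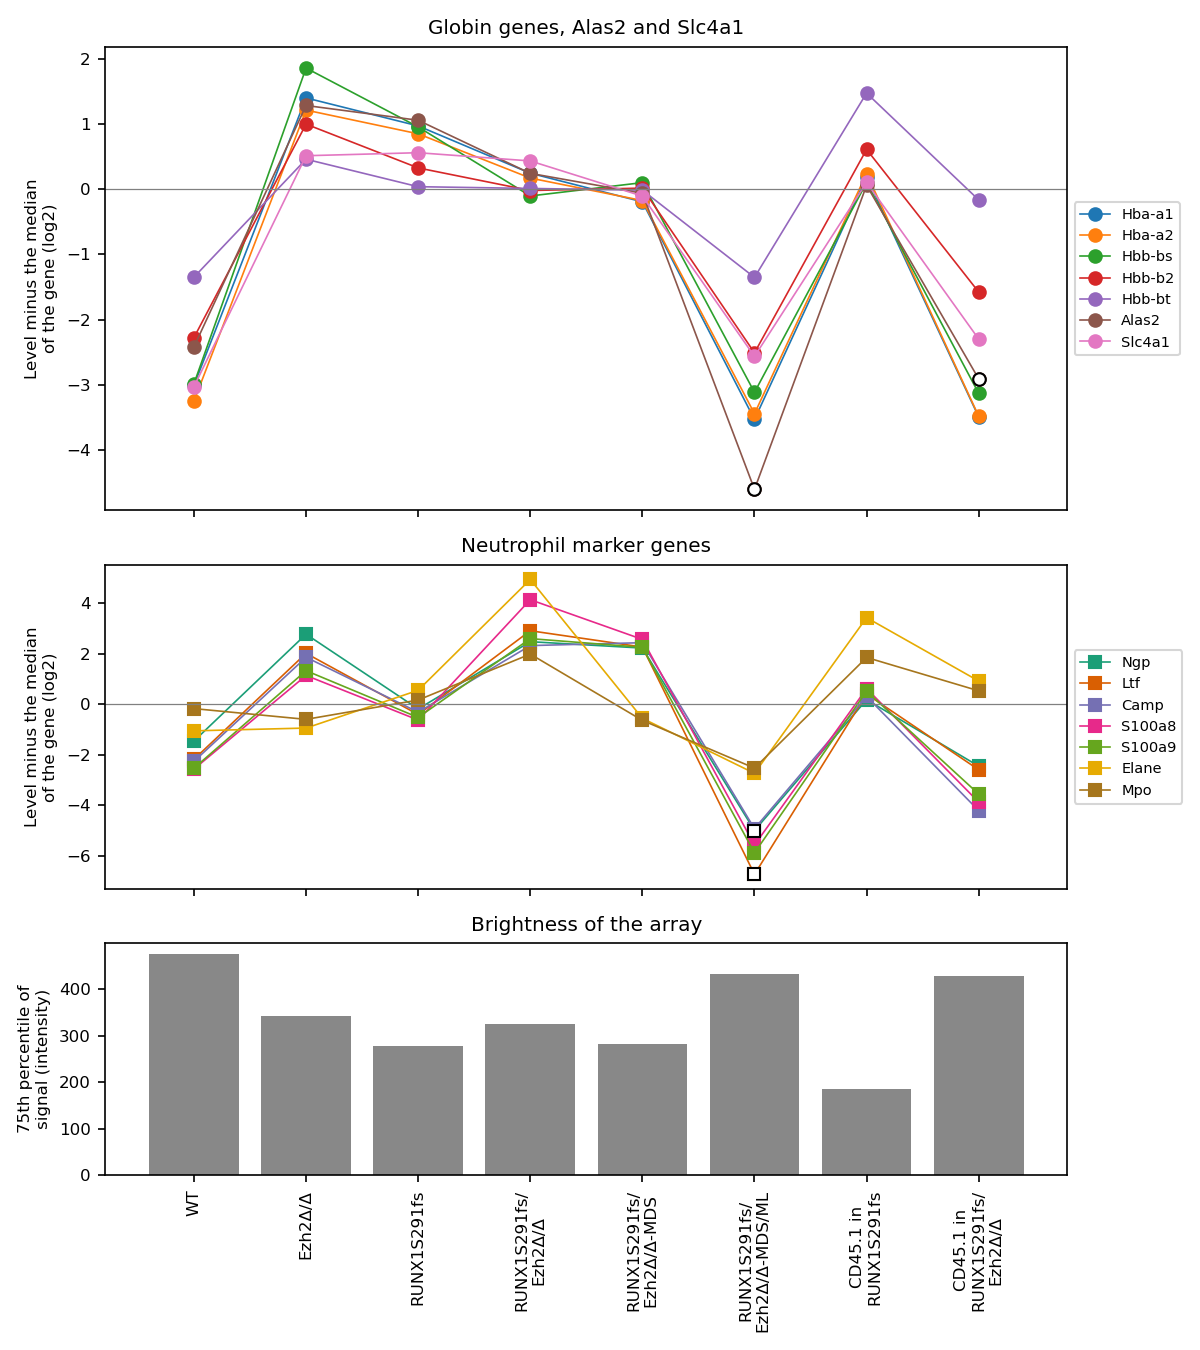
Top and middle panels show each gene's level minus its own median over the 8 arrays (log2) for globin genes, Alas2 and Slc4a1 and for 7 neutrophil markers; the bottom panel shows the 75th percentile of signal of each array. Lines only join the values of a gene, open points are not well above background, and WT, MDS/ML and the CD45.1 array from double-mutant marrow are low in both upper panels for most genes and brightest in the lowest.

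Of the 18 listed genes of the red cell membrane and its skeleton, 10 were well above background on at least 3 arrays, among them Epb41, Gypc and Xk. Others were dim: Rhag and Ank1 were well above background on 2 arrays each, and Epb42, Sptb and Dmtn on none. Klf1, the transcription factor that drives adult globin genes, lay between -3.21 and -0.92, highest on the double mutant, and Gata1 between 1.64 and 3.01. Neither had the 3 low arrays as its lowest 3, and their r with Hba-a1 over the 8 arrays was 0.40 and -0.21.

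To place the members in the fit across all genes, limma was used with terms for Ezh2 deletion, RUNX1S291fs and moribund stage over all 8 arrays, on the 13553 genes that passed background on 3 or more arrays. The 4 residual degrees of freedom came from arrays with the same terms (3 of wild-type cells, 2 moribund) and from genotypes that did not add up. By limma with Benjamini-Hochberg adjustment, Ezh2 deletion called 0 genes (0% of those tested; 321 at an unadjusted p under 0.05) and 0 members. Its effect was 1.81 ± 1.48 (SE, log2) on Hba-a1, 1.499 ± 1.51 on Alas2 and 1.30 ± 1.09 on Slc4a1, with adjusted p = 1.00 in limma for each of the 7 members. Without the Ezh2Δ/Δ array these effects were -0.73, -0.81 and -0.13.

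RUNX1S291fs called 2 genes in limma, 0.0148% of those tested, and 0 members (0 at an unadjusted p under 0.05, beside 5.95% of genes). Its effect was 1.38 ± 1.48 on Hba-a1, 1.27 ± 1.51 on Alas2, 1.35 ± 1.09 on Slc4a1 and -0.86 ± 0.47 on Car1, with limma adjusted p = 1.00 throughout. Without the RUNX1S291fs array the effects were -1.16, -1.04, -0.08 and 0.22. Each genotype effect on these genes therefore changed sign with 1 array.

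Moribund stage called 250 genes in limma, 1.84% of those tested, and 0 members, with 1 member, Epor, at an unadjusted p under 0.05, beside 13.7% of genes. Epor was 1.53 ± 0.62 higher (limma adjusted p = 0.333). Hba-a1 was 3.38 ± 1.81 lower by the fit (-3.38, limma adjusted p = 0.488), Alas2 at -3.73 ± 1.85 (0.451) and Slc4a1 at -2.48 ± 1.34 (0.490), although MDS was not low. Over the alternatives run, the adjusted p of Epor ran from 0.248 to 0.628 and that of Hba-a1 from 0.373 to 0.903. Adding the product of both genotypes called 0 genes (0%), with product effects of -4.23 ± 2.75 on Hba-a1 (limma adjusted p = 0.846) and 1.79 ± 0.75 on Car1 (0.769). The product fit asked whether the single lesions add up; 884 genes had an unadjusted p under 0.05.

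**Figure D4:**
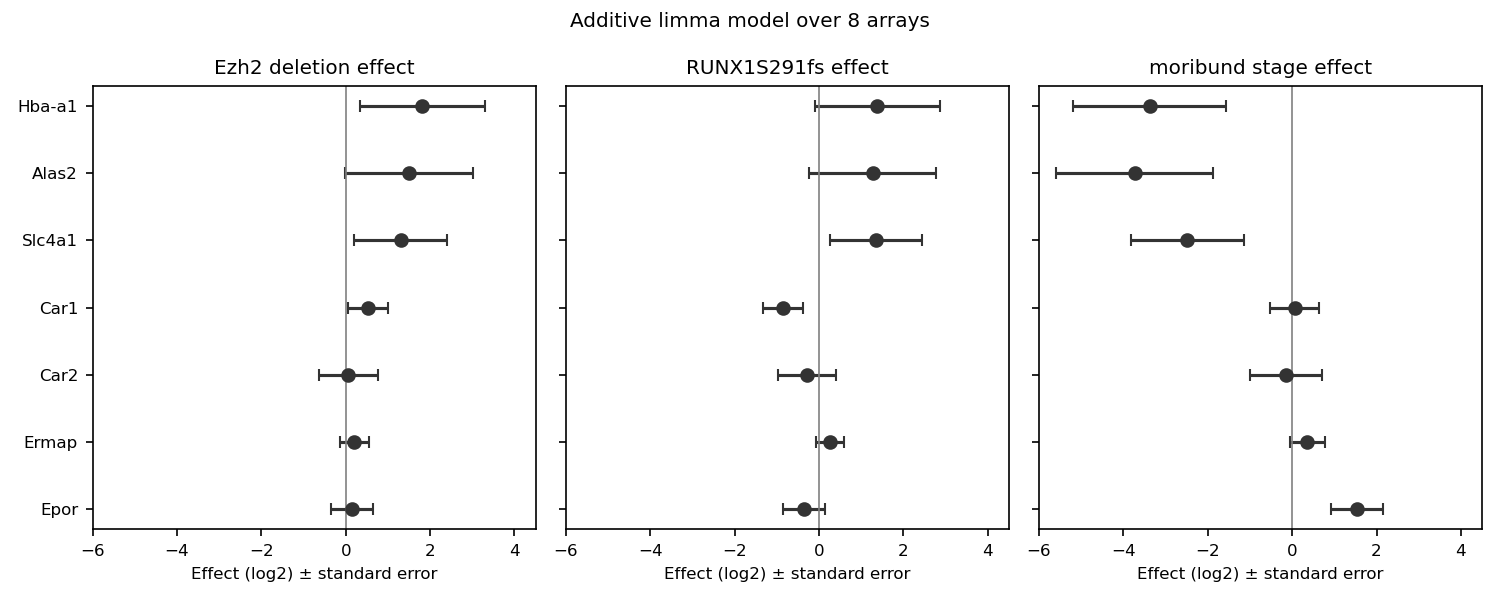
Effects of Ezh2 deletion, RUNX1S291fs and moribund stage on the 7 members (log2, point) with standard errors (bars) from the additive limma fit over 8 arrays. The widest bars belong to Hba-a1, Alas2 and Slc4a1, and no effect passed the adjusted threshold.

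Among the other genes of the pathway, heme synthesis and transport (15 genes fitted of 15) mostly had other low arrays than the globin genes, though Ppox, which acts late in the pathway, had the same 3 over a much narrower range. By limma 0 of the 15 were called in any effect; for stage 14 had a negative effect (median -0.51, all genes -0.13), and Fech had an unadjusted p under 0.05. Alas1, which makes the form of the starting enzyme found in all cells, was at 4.58 on WT, 3.51 on Ezh2Δ/Δ, 4.79 on RUNX1S291fs, 8.34 on the double mutant, 3.63 on MDS, 3.94 on MDS/ML, 6.89 on the CD45.1 array from RUNX1S291fs marrow and 5.34 on the CD45.1 array from double-mutant marrow. It was highest on the double mutant, whereas Alas2 was highest on Ezh2Δ/Δ. Fech, the last enzyme of the pathway, was at 0.74 on MDS and between 1.96 and 2.99 on the others.

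Of 18 membrane and skeleton genes 10 were fitted. For stage 1 was called by limma, Rhd, a Rh family membrane protein, at -2.47 ± 0.43 (adjusted p = 0.0410), being -2.49 on MDS, -3.12 on MDS/ML and -2.13 to -0.43 on the other arrays. Leaving out any array except the CD45.1 array from RUNX1S291fs marrow (adjusted p = 0.0396) took the limma adjusted p to between 0.0667 and 0.273, and with slide as a fixed block it was 0.205. Rhd was called in 7 of the 18 alternatives run, and with normexp its effect was -1.59 (limma adjusted p = 0.0788). The Kell blood group gene Kel ran from -2.90 on the CD45.1 array from RUNX1S291fs marrow down to a value not well above background on MDS/ML, and Tmod1 was well above background on only 3 arrays.

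The 8 iron genes were all fitted and 0 were called by limma in any effect; Ftl1, ferritin light chain, was lowest on the 3 low arrays of Hba-a1. The iron exporter gene Slc40a1 was at 1.36 on the double mutant, -3.32 on WT, -3.25 on Ezh2Δ/Δ and -3.24 on RUNX1S291fs, and not well above background on the CD45.1 array from double-mutant marrow. The transferrin receptor gene Tfrc ran from -0.45 on MDS/ML to 3.12 on the CD45.1 array from RUNX1S291fs marrow.

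Of 12 genes of erythropoietin receptor signalling, Sh2b3, an adaptor that restrains JAK2 signalling, was called by limma for stage, at -2.16 ± 0.35 (adjusted p = 0.0328). It was at -0.04 on MDS and -0.41 on MDS/ML and between 1.85 and 2.53 on the other arrays. With slide as a fixed block the adjusted p in limma was 0.176, and leaving out any array except the CD45.1 array from RUNX1S291fs marrow (0.0413) took it to between 0.0672 and 0.242. Bcl2l1, which encodes a survival protein, was at 5.61 on MDS and 6.28 on MDS/ML and between 3.57 and 4.87 on the others, with a limma adjusted p of 0.268 for stage.

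Of 16 carbonic anhydrase genes 10 were fitted and 0 were called by limma in any effect. Car3 was at 1.17 on WT, 0.84 on Ezh2Δ/Δ, -1.59 on RUNX1S291fs and -2.13 on the double mutant and was not well above background on either moribund array, with a limma adjusted p of 0.0539 for stage. Car12 was at 1.97 on the CD45.1 array from RUNX1S291fs marrow and not well above background on MDS. Of 6 red cell enzyme genes with a probe 5 were fitted and 0 called by limma; Prdx2, a peroxidase abundant in red cells, ran from 3.57 on MDS to 6.81 on the CD45.1 array from RUNX1S291fs marrow. Of 7 erythroid transcription factors 0 were called by limma; for stage Gfi1b was at 4.504 and 4.77 on MDS and MDS/ML and between 0.79 and 3.01 on the others.

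**Figure D5:**
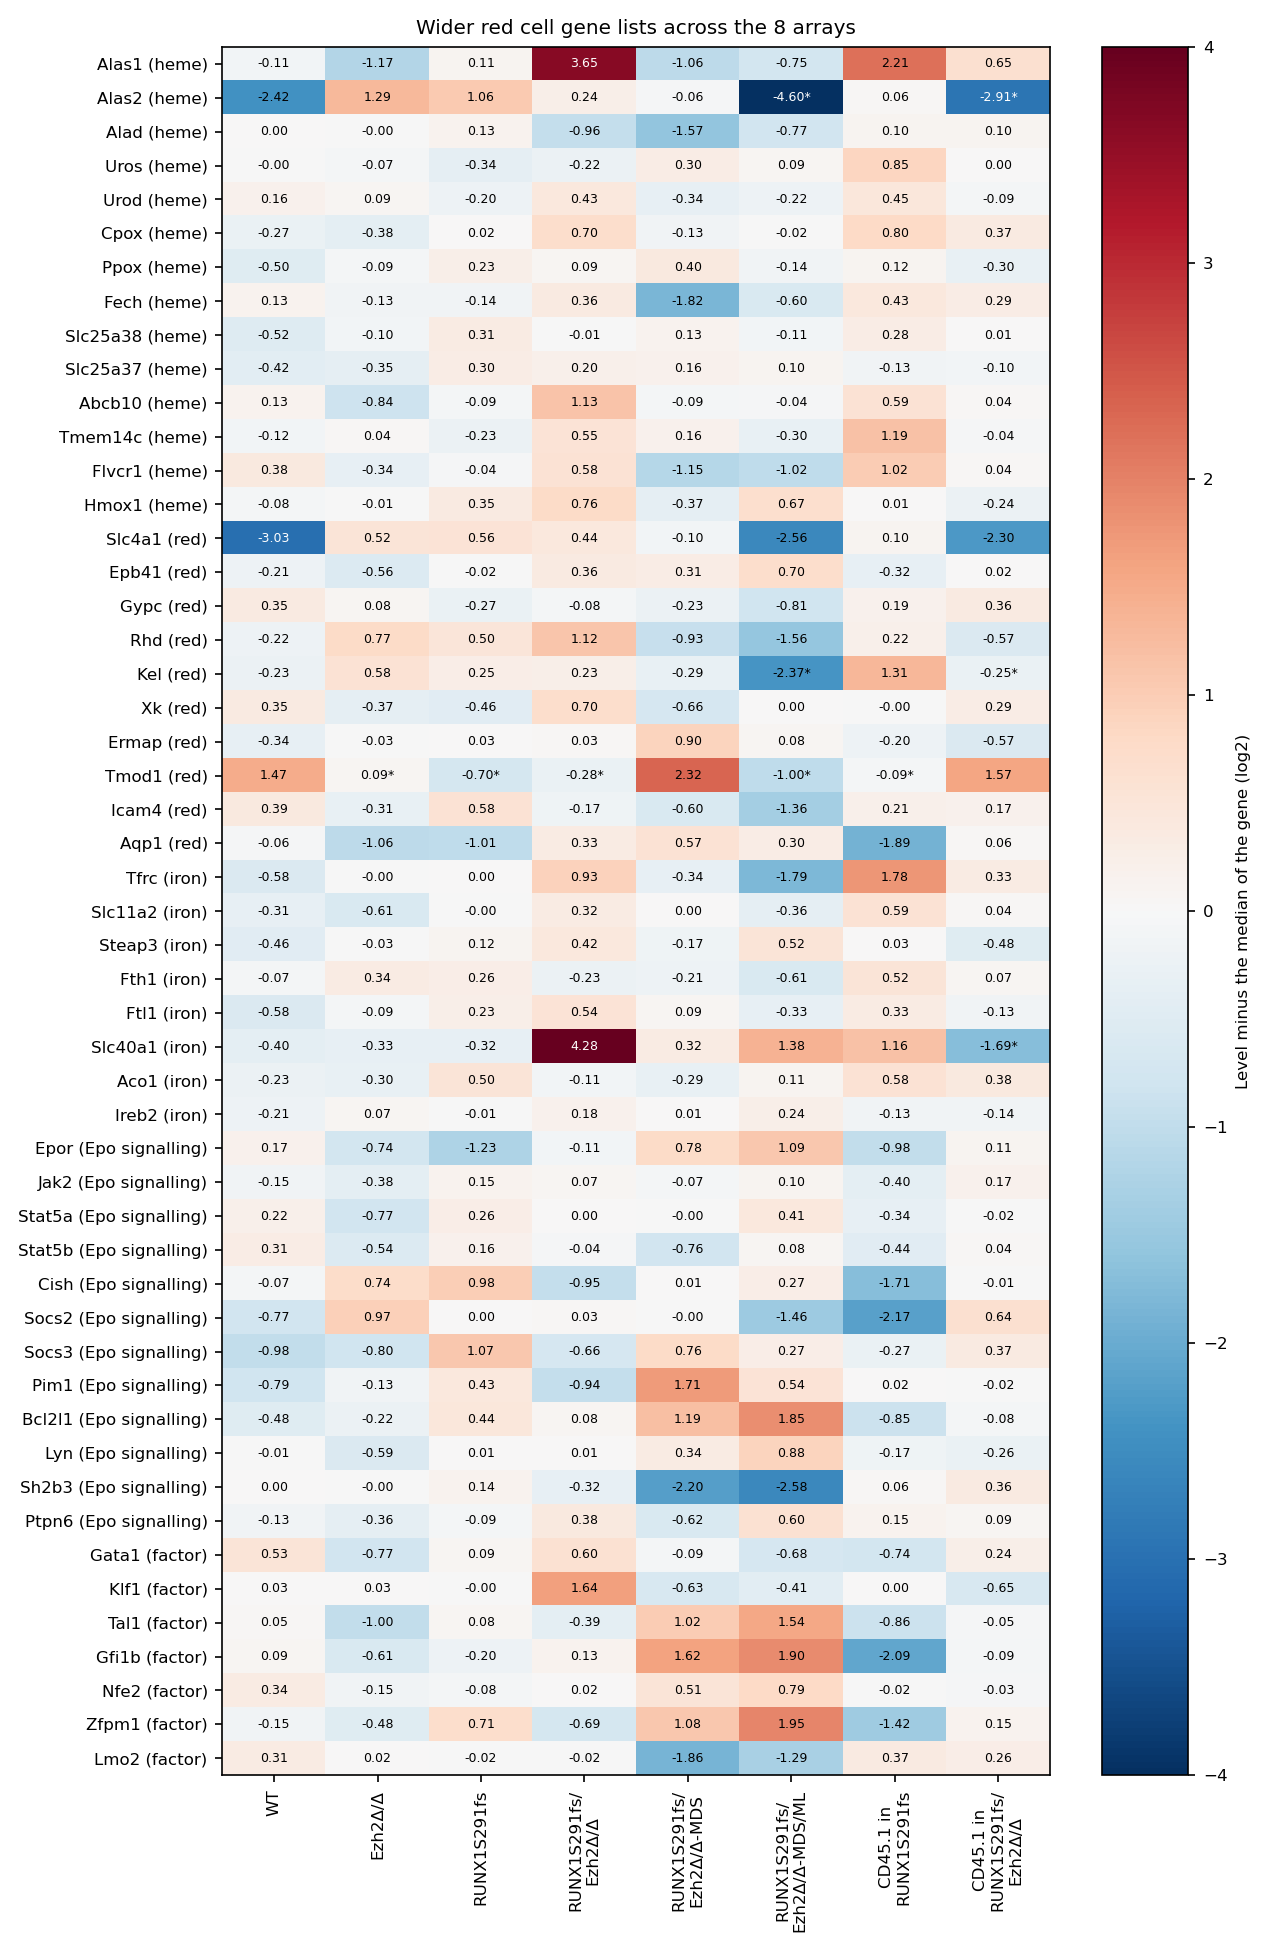
Level of each gene minus its own median over the 8 arrays (log2), for most heme, membrane (red), iron, erythropoietin signalling and transcription factor genes measured above background on 3 or more arrays; stars mark values not well above background. Alas2 and Slc4a1 are low on WT, MDS/ML and the CD45.1 array from double-mutant marrow; Sh2b3 is low on MDS and MDS/ML.

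Likeness to each member was measured as Pearson r of level over the 8 arrays among 13546 other genes, as a description with no p. Hba-a1 was most like Hba-a2 (0.998), Hbb-bs (0.991) and Hbb-b2 (0.961), Alas2 like Hba-a2 (0.961), Hbb-bs (0.952) and Apol11b (0.951), and Slc4a1 like Hba-a2 (0.979), Apol11b (0.974) and Hbb-b2 (0.961). The remaining members had other nearest genes: Car1 Ptger2 (0.955), Car2 Pck2 (0.960), Ermap Hpn (0.985) and Epor Zmat1 (0.969). All these genes share the same 8 arrays and their brightness.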

How the data were processed

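RNA of 8 groups was read on 8 arrays, 1 per group. Per the file headers the authors scanned arrays of design 028005 with Agilent Feature Extraction 10.7.1.1. The processed signal is a fluorescence intensity that the software had corrected for background within each array, per the file headers, with no scaling between arrays. Per the labels, 20 ng of total RNA was labelled with Cy3. The series table deposited by the authors holds signal intensity on a linear scale. For 100% of probes it equalled, within 0.05 log2, the processed signal over a constant of the array that put the 75th percentile at 1.00 to 1.01; genes were not centred. It was used only as an alternative.

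Control spots and 105 to 154 flagged repeat spots per array were left out, repeat spots averaged, and log2 intensity as deposited was scaled to each array's 75th percentile. Names came from RefSeq transcripts (GRCm38.p6), which named 27235 of 55681 probes; 0 spots were saturated. The number of arrays limits the precision. The text names all 9 genes of the set, up to 3 genes with the widest range from each of 14 gene lists, and the 3 genes most like each member. The members and lists were chosen with earlier results of these data known. limma 3.58.1 in R 4.3.3 was fitted as lmFit and eBayes, adjusted over all genes at 0.05, and tested on simulated data. Pairs of arrays used a 2-fold threshold. Alternatives were normexp (offset 50, on median spot signal because the planned mean signal was not used here), quantile scaling, median centring, the series table, the mean of probes, filters, slide as a block, model terms, other folds and leaving out each array. A few genes of the lists are not reported here by name; the list counts include them.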

Additional observations from a re-analysis of the deposited data

How the results depend on the processing

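No paired analysis was possible because each group has 1 array, all numbered 1, so the numbers pair nothing. Under each alternative run, 0 of the 7 members were called in any effect (58 of 58 combinations of an alternative and an effect). The 3 lowest arrays of Hba-a1, Hba-a2, Hbb-bs, Hbb-b2, Hbb-bt, Alas2 and Slc4a1 were the same under normexp, median centring, the series table and the mean of probes, and for 6 of 7, all but Hbb-bt, under quantile scaling. With normexp the range of Slc4a1 fell from 3.59 to 2.41. The cause was not tested for any value here unless stated.

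Genes called for RUNX1S291fs numbered 2 in the fit reported, 1 with normexp or the mean of probes, 5 with quantile scaling, 9 without the stage term, 4 with month 4 arrays only, and 0 with median centring, with the filter at 1 or at all 8 arrays, with slide as a fixed or random block and with the product added. For stage they were 250, 151 with the filter at all 8 arrays and 70 with slide as a fixed block. Leaving out 1 array gave 0 to 10 for RUNX1S291fs and 0 to 381 for stage. Members at least 2-fold apart at other folds or settings: Ezh2Δ/Δ against WT 5 at 1.5-fold; the double mutant against RUNX1S291fs 1 with normexp, 5 at 1.5-fold and 0 at 4-fold, and against Ezh2Δ/Δ 0 at 4-fold; MDS against the double mutant 1 with quantile scaling and 2 with the mean of probes or 1.5-fold; RUNX1S291fs against its CD45.1 cells 1 with normexp, 4 at 1.5-fold and 0 at 4-fold; the CD45.1 array from double-mutant marrow against WT 2 at 1.5-fold.

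These effects turned sign. Epor under Ezh2 deletion was -0.0304 with slide as a fixed block, and under RUNX1S291fs 0.16 without the stage term. Car2 under Ezh2 deletion was -0.11 with the product, and for stage 0.0357 with quantile scaling and 0.36 with the product. Car1 for stage was -0.84 with the mean of probes, -0.47 with slide as a fixed block and -0.47 with the product. Ermap for stage was -1.23 with the mean of probes. Leaving out 1 array gave, for Ezh2 deletion, -0.73 to 3.50 on Hba-a1, -0.81 to 3.04 on Alas2, -0.13 to 2.26 on Slc4a1, -0.18 to 1.61 on Car1, -0.95 to 0.73 on Car2 and -0.50 to 1.12 on Epor. For RUNX1S291fs it gave -1.16 to 3.07, -1.04 to 2.81, -0.0799 to 2.30, -1.57 to 0.22, -1.29 to 0.39 and -0.998 to 0.63 in the same order of genes. For stage it gave -0.47 to 1.32 on Car1, -1.32 to 0.36 on Car2 and -0.0561 to 0.77 on Ermap. Alas2 was not in the fit with the filter at all 8 arrays.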

Other observations

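Cd34, a stem and progenitor surface marker, was at 4.25 on MDS and 3.76 on MDS/ML and between 7.54 and 8.18 on the other 6 arrays, with a stage effect of -3.70 ± 0.38 (limma adjusted p = 0.0116). Over the alternatives its adjusted p in limma ran from 0.00312 to 0.0905, the latter without the double mutant array, and was 0.066 with slide as a fixed block. The mean level of 7 megakaryocyte genes was 4.45 on MDS and 4.46 on MDS/ML and between -1.02 and 2.40 on the others, lowest on the CD45.1 array from RUNX1S291fs marrow. Of the 7, 0 were called by limma for stage and 5 had an unadjusted p under 0.05, beside 1856 of all 13553 genes (13.7%). Vwf, named after its values were seen, was lower on MDS, unlike the other 6, at -0.08 on MDS and 2.12 on the month 4 double mutant.

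All 6 mast cell and basophil genes had a positive RUNX1S291fs effect, with 0 called by limma and 6 at an unadjusted p under 0.05, beside 807 of all 13553 genes (5.95%). Their stage effect was negative for 5 and positive for 1 (median -4.65). Their mean level was -0.58 on MDS and -1.99 on MDS/ML, which also carry RUNX1S291fs. The mean was 2.06 on RUNX1S291fs, 3.06 on the double mutant, -3.52 on WT and -2.42 on Ezh2Δ/Δ. It was -0.62 and -1.44 on the CD45.1 arrays from RUNX1S291fs and double-mutant marrow. Some of these means include values not well above background. Summed on the linear scale, the list was instead highest on MDS, at 359, with 171 on the double mutant and 132 on RUNX1S291fs. Of these 6, Tpsb2, also named after its values were seen, had the same 3 lowest arrays as Hba-a1. Igll1, a chain of the pre-B cell receptor, was at 4.34 on Ezh2Δ/Δ, 1.09 on the CD45.1 array from double-mutant marrow and below 0 on the other 6 arrays.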
